A study of Mus musculus with 6 samples.

Results

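The brain keeps a molecular map of its own axis, written by transcription factors that each mark a territory from the cortex to the spinal cord. Here 9 of them were followed as a check on whether brains with and without active human SRY held the same regional make-up. They were the forebrain factors Emx1, Emx2, Lhx2, Pax6 and Tcf7l2, the midbrain and cerebellar factors En1 and En2, and the caudal hindbrain factors Hoxb3 and Hoxb5. Members were all probes of the deposited brain table whose gene symbol was one of these 9 names. The table held 8 of the 9 genes, with 12 probes among 25697 probes of 18138 symbols, and no probe carried the symbol Emx1. Levels were read from 3 hSRY-OFF and 3 hSRY-ON whole brains.

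All brains came from male FVB mice (FVB/N in the study's methods) at postnatal day 6 (P6) that carried a single copy of a human SRY transgene at the H11 locus of chromosome 11. The transgene stands behind the ubiquitous CAG promoter and a red fluorescent DsRed2 cassette flanked by loxP sites, so that it is silent until Cre recombinase removes the cassette. In hSRY-OFF mice the transgene was unrecombined. In hSRY-ON mice it had been recombined in the one-cell embryo by Cre carried over in the oocyte of a Ddx4-Cre mother, and the pups used did not inherit the Ddx4-Cre transgene themselves. The transgene was therefore active throughout the body and not in the brain alone. RNA of each brain was read on an Illumina MouseRef-8 v2.0 array, where the brightness of the beads of a probe gives its signal intensity in arbitrary units.

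Patterning factors are set up in the embryo, when signals from the edges of the neural tube divide it into forebrain, midbrain and hindbrain. Emx and Lhx2 proteins specify the cortex, Pax6 patterns the cortex and the eye, and Tcf7l2, a high-mobility-group factor that acts in Wnt signalling, stays on in the thalamus after birth. En1 and En2 mark the midbrain and the cerebellum, and Hox genes mark the hindbrain and spinal cord, each with its own front border. Such factors are used as regional markers, although several, Pax6 and Tcf7l2 among them, are active in more than one tissue or cell type. In tissue homogenates such as these, fewer cells of a type and less RNA per cell cannot be told apart.

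Median signal intensity lay between 200.2 and 219.8 on the 6 arrays, and between 13816 and 14377 probes per array were detected at a detection p-value under 0.05. Values were corrected for background, quantile normalized and put on the log2 scale, and 14215 probes detected on at least 3 arrays were tested with limma. Neuron markers summed to 58700 to 64200 on the linear normalized scale in hSRY-OFF and 61800 to 62600 in hSRY-ON, and the Snap25 probe was detected on no array. Slc17a7, the vesicular glutamate transporter of cortical excitatory neurons, had a log2 fold change of -0.63 with no overlap and a limma adjusted p of 0.0595, so it was not called. Oligodendrocyte markers were lower in hSRY-ON, with summed signals of 21500 to 22300 against 28000 to 36800 and 3 of 14 tested probes called. The sum for dividing cells was also lower, at 1510 to 2400 against 3380 to 3850, with 4 of 7 tested probes called. Astrocyte and radial glia markers were at 44100 to 44300 in hSRY-OFF and 42400 to 47900 in hSRY-ON, sums set mostly by the bright Slc1a3, Gja1 and Aldoc probes. Of the 10 tested probes, 7 had a lower mean in hSRY-ON, 3 a higher one, and 2 were called lower. Groups did not overlap for 4 lower probes and 1 higher one, beside 27.7% of all tested probes. The higher one was Aldoc (log2 fold change 0.28, limma adjusted p 0.105). Skeletal muscle markers, which a brain sample should hold little of, summed to 1010 to 1130 in hSRY-OFF and 1200 to 1320 in hSRY-ON, with the actin gene Acta1 called higher (log2 fold change 0.43, limma adjusted p 0.0479). Both tested probes of the myosin gene Myh8 overlapped between the groups, with log2 fold changes of 0.02 and -0.12, and the Ckm probe was detected on no array. The oligodendrocyte, dividing cell and muscle sums did not overlap between the groups, and the part of these lists in the results below was not tested. Over all tested probes, 2.17% were called. With the replicate number added to the fit, 0 of 14215 probes were called, so these marker calls were lost. They were also lost in each fit with 1 array left out, other than that without hSRY-ON array 3, where 417 probes were called. Pituitary markers were near background, with summed signals of 170 to 190 in hSRY-OFF and 177 to 228 in hSRY-ON and 5 of 6 probes detected on no array. The remaining probe, of the growth hormone gene Gh, was at 207.1, 171.1 and 168.5 in hSRY-OFF, detected on 1 array, and 249.6, 229 and 179.6 in hSRY-ON, detected on 2, with a log2 fold change of 0.94 and a limma adjusted p of 0.236. Retina and lens markers were at 201 to 232 in hSRY-OFF and 198 to 243 in hSRY-ON, with 6 of 7 probes detected on no array.

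None of the patterning factors was called different between hSRY-ON and hSRY-OFF, so their levels gave no call of a changed regional share at 3 arrays a group. Detection allowed a test of 7 probes from 6 genes, namely Lhx2, Tcf7l2, En1, En2, Hoxb3 and Hoxb5, and 0 of these 7 passed an adjusted p of 0.05 in limma, where 2.17% of all tested probes were called. Of the 7, 6 were detected in both groups, and the dim Tcf7l2 probe entered the test through its detection in hSRY-ON only. Among the 6, those of Lhx2 and Tcf7l2 had an unadjusted p under 0.05, 2 in all, as did 20.9% of all tested probes. Groups did not overlap for 3 of the 6, against 27.7% of all tested probes. The 6 log2 fold changes ran from -0.42 for En2 to 0.43 for Lhx2, with a median of 0.20 beside 0.0048 over all tested probes. The middle portion of all tested probes, between the quartiles, spanned -0.14 to 0.14.

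**Figure D1:**
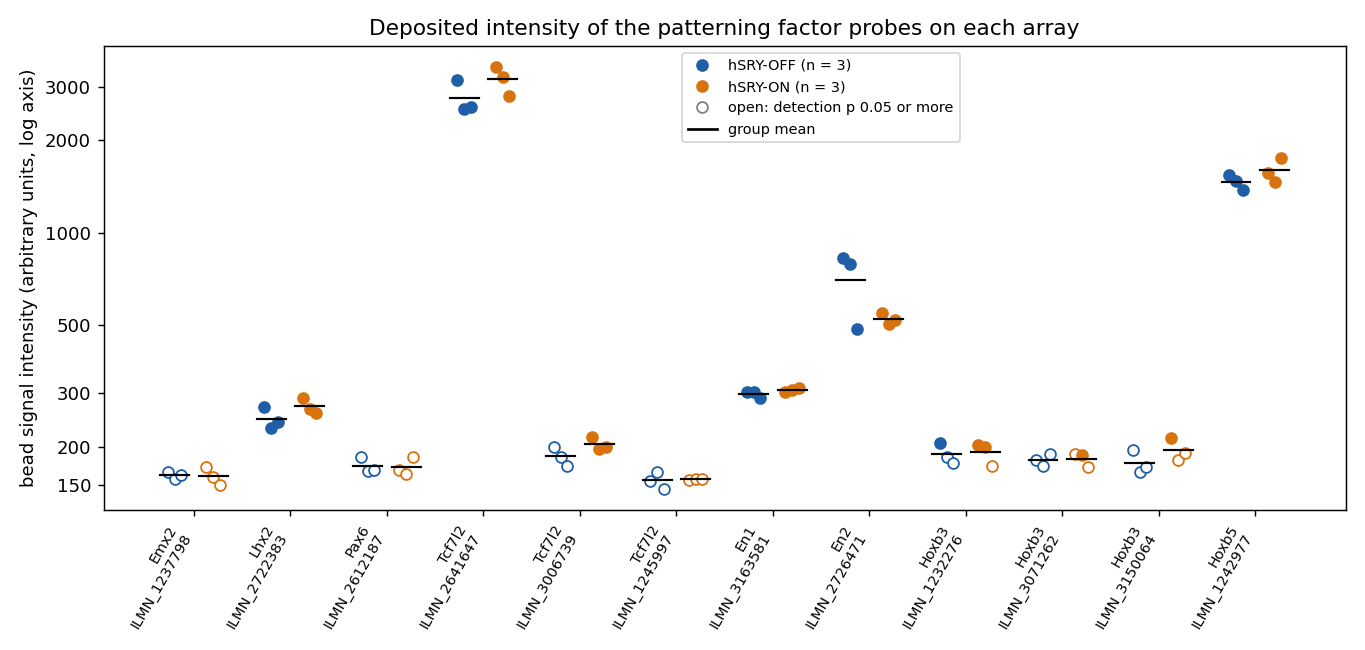
Deposited bead signal intensity (arbitrary units, log axis) of the 12 patterning factor probes, with 3 hSRY-OFF arrays in blue, 3 hSRY-ON arrays in orange, group means as bars and open symbols where the detection p-value was 0.05 or more. The main Tcf7l2 probe (ILMN_2641647) and the Hoxb5 probe were far above background in both groups, the Emx2 and Pax6 probes were at background on all 6 arrays, and the hSRY-OFF arrays split for En2.

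The cortical factors Emx2 and Pax6 gave no usable level. The Emx2 probe (ILMN_1237798), for a homeobox gene on chromosome 19 at positions 59458690 to 59465357 of GRCm38.p6, gave 165.7, 156.7 and 162 in hSRY-OFF and 171.5, 159.2 and 150 in hSRY-ON, each in the order of the replicate numbers. The Pax6 probe (ILMN_2612187), for the paired-box gene at 105668896 to 105698410 on chromosome 2, was at 184.9, 166.6 and 167.7 in hSRY-OFF and 167, 163 and 185.3 in hSRY-ON. Neither probe was detected on any of the 6 arrays, and they were not tested. A probe at background bounds only what that probe reads, and no statement about the cortex was drawn from these 2 genes.

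Lhx2, a LIM-homeobox factor that selects cortical fate and is needed for the hippocampus, lies on chromosome 2 at 38339271 to 38369737. Its probe (ILMN_2722383) was at 268.4, 230.6 and 240.8 in hSRY-OFF and 288.4, 265.1 and 257.7 in hSRY-ON. The deposited intensities overlapped, since hSRY-OFF array 1 was brighter than hSRY-ON arrays 2 and 3. After normalization, log2 levels were 6.64, 6.35 and 6.58 in hSRY-OFF and 7.09, 6.96 and 6.80 in hSRY-ON, which did not overlap. The mean went from 6.52 ± 0.15 (SD, n = 3) to 6.95 ± 0.14 (SD, n = 3), a log2 fold change of 0.43 (SE 0.11, 95% interval 0.16 to 0.69) or 1.35-fold. With a limma adjusted p of 0.0968, Lhx2 was not called. Without background correction the log2 fold change was 0.18 (adjusted p 0.119).

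Tcf7l2 was well above background at its main probe. It encodes a high-mobility-group partner of beta-catenin that is prominent in the postnatal thalamus and is also used by oligodendrocytes as they mature, and it lies at 55741797 to 55933659 on chromosome 19. Its main probe (ILMN_2641647) was at 3143, 2542 and 2564 in hSRY-OFF and 3474, 3224 and 2803 in hSRY-ON. On the normalized log2 scale these were 11.37, 11.24 and 11.30 against 11.65, 11.68 and 11.41, so that each hSRY-ON brain stood above each hSRY-OFF brain after normalization, while the deposited intensities overlapped. The log2 fold change was 0.28 (SE 0.098, 95% interval 0.05 to 0.51), or 1.21-fold, with a limma adjusted p of 0.169. This probe was called in 2 of 15 other settings, without background correction (log2 fold change 0.26, adjusted p 0.0427) and with a robust prior that follows signal (adjusted p 0.0193). Those settings called 1317 and 1447 of all 14215 tested probes, against 308 in the main fit.

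The other Tcf7l2 probes were dim. Probe ILMN_3006739 was at 199.2, 185.4 and 172.5 in hSRY-OFF, where it was detected on no array, and at 214.7, 196.2 and 199.6 in hSRY-ON, where it was detected on all 3. The deposited intensities overlapped, since hSRY-OFF array 1 was brighter than hSRY-ON array 2. Normalized log2 levels were 5.79 ± 0.14 in hSRY-ON against 5.19 ± 0.20 in hSRY-OFF (SD, n = 3 each), with a limma adjusted p of 0.0595. That p carries little weight because detection in hSRY-ON alone brought the probe into the test. On this corrected scale the hSRY-ON mean stood 1.26-fold above the lowest detected signal of the hSRY-OFF arrays. The log2 fold change was 0.60 in the main fit and 0.16 without background correction, so no minimum fold holds across settings. Probe ILMN_1245997 was below background on all 6 arrays. The oligodendrocyte markers had lower means in hSRY-ON at 13 of 14 tested probes, opposite to Tcf7l2, and their part in its value was not tested.

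Because SRY and Tcf7l2 both bind DNA through a high-mobility-group domain, the RefSeq promoters of the members were searched for the core motif AACAAT on both strands. The table held 9 start-site windows for 6 of the genes. The motif occurred in 1 of them, a Tcf7l2 window, while 10.7% of all 32851 windows of the same length held it. The stretch around the match, on the plus strand of GRCm38.p6 with the motif, read from its reverse strand, in capitals, is shown as the one match among the members.
Tcf7l2, chr19:55741686-55741735: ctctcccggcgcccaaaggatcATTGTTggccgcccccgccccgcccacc
A match of these letters is a description of the sequence and not a measured binding site.

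En1, the engrailed factor that maintains the midbrain and hindbrain junction and later dopamine neurons, lies on chromosome 1 at 120602487 to 120607991. Its probe (ILMN_3163581) was at 301.3, 302.1 and 289.1 in hSRY-OFF and 301.3, 304.8 and 311 in hSRY-ON. The groups overlapped on the log2 scale, at 7.01, 7.27 and 7.19 against 7.20, 7.38 and 7.40. The log2 fold change was 0.17 (SE 0.10, 95% interval -0.07 to 0.41) with a limma adjusted p of 0.382, and it was 0.10 without hSRY-OFF array 1 and 0.09 without background correction.

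En2 was the single member with a lower mean in hSRY-ON, and it was also the least even among controls. En2, the second engrailed gene, is used in the cerebellum, where it guides its folding, and lies on chromosome 5 at 28165696 to 28172190. Its probe (ILMN_2726471) was at 826.2, 789.7 and 484.6 in hSRY-OFF and 544.1, 503.1 and 519.7 in hSRY-ON. The 3 hSRY-ON brains lay close together, hSRY-OFF arrays 1 and 2 lay above all of them, and hSRY-OFF array 3 lay below all of them. Log2 levels were 9.20, 9.34 and 8.45 in hSRY-OFF (SD 0.48, n = 3) and 8.58, 8.55 and 8.61 in hSRY-ON (SD 0.03, n = 3). The log2 fold change was -0.42 (SE 0.22, 95% interval -0.93 to 0.10) with a limma adjusted p of 0.324. Without hSRY-OFF array 3 it was -0.69 (95% interval -0.92 to -0.46), and the limma adjusted p was then 0.0895. Without hSRY-OFF array 2 it was -0.25, with a limma adjusted p of 0.621.

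Array 3 of hSRY-OFF was read against the other cerebellar genes, a comparison chosen after the En2 values were seen. Among the 8 tested probes of the rhombic lip and cerebellum list, this array was the lowest of the 3 hSRY-OFF arrays for 7 (87.5%), against 33% of all tested probes. Zic1, a zinc-finger factor of cerebellar granule cell precursors, was at 1467, 1203 and 847 in hSRY-OFF and 1258, 1064 and 1265 in hSRY-ON. Array 3 was also lowest for 6 of the 7 tested probes of dividing cells (85.7%). Granule neuron markers summed to 5670 to 6680 in hSRY-OFF and 5300 to 5490 in hSRY-ON, which did not overlap, and 3 of the 6 probes of that list were detected on no array. Cbln1 made up most of that sum, so the lack of overlap describes 1 gene and not the cell type. Its deposited intensities, 6432, 6563 and 5433 in hSRY-OFF and 5534, 5008 and 5340 in hSRY-ON, overlapped. Grin2c overlapped too and was highest on hSRY-OFF array 3, at a log2 level of 6.34 against 5.28 and 5.64 on hSRY-OFF arrays 1 and 2. Both tested granule neuron probes, of Cbln1 and Grin2c, were not called. The part of these differences among controls in the En2 value was not tested.

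**Figure D2:**
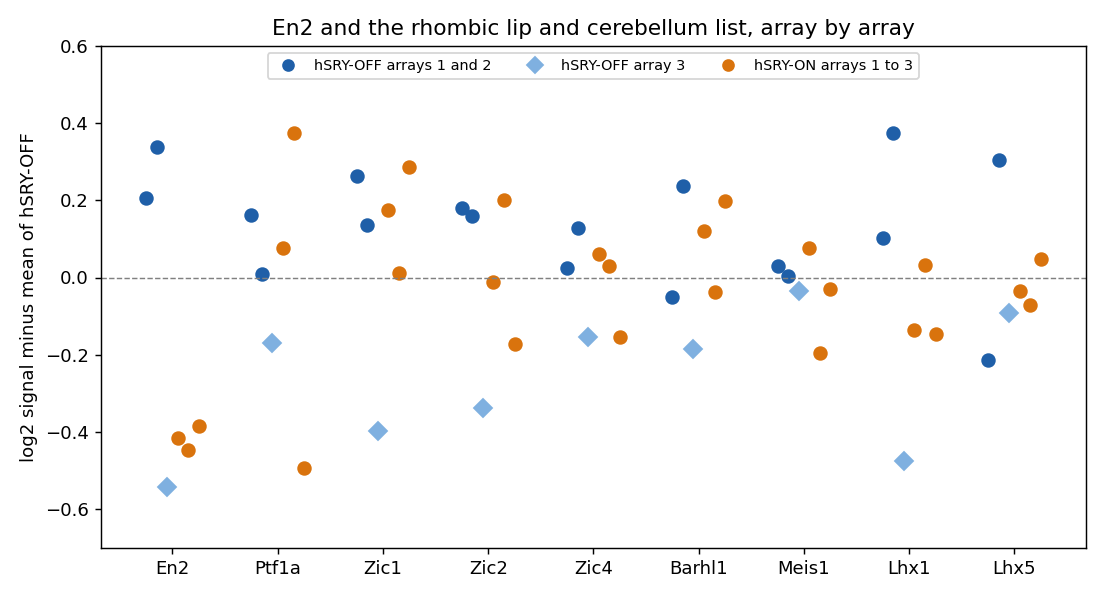
Normalized log2 signal of En2 and of the 8 tested rhombic lip and cerebellum probes on each array, minus the mean of the 3 hSRY-OFF arrays for that probe. The diamond, hSRY-OFF array 3, is the lowest hSRY-OFF point for En2 and for 7 of the 8 other probes, and the 3 hSRY-ON points of En2 lie below 0.

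Hoxb5 was well above background in every brain. The gene patterns the caudal hindbrain and the cervical spinal cord and lies in the Hoxb cluster of chromosome 11, at 96303512 to 96306121, on the chromosome that also holds the H11 locus of the transgene. Its probe (ILMN_1242977) was at 1545, 1479 and 1379 in hSRY-OFF and 1569, 1467 and 1754 in hSRY-ON. The deposited intensities overlapped, while the log2 levels, 10.25, 10.40 and 10.33 against 10.44, 10.45 and 10.71, did not. The log2 fold change was 0.21 (SE 0.10, 95% interval -0.03 to 0.45) with a limma adjusted p of 0.296, and hSRY-ON array 3 was the highest of the 6. Without that array the log2 fold change was 0.12.

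Hoxb3, whose front border lies further forward in the hindbrain, was at the edge of detection. It lies at 96307101 to 96347930 in the same cluster. Probe ILMN_1232276 was at 205, 185.3 and 176.5 in hSRY-OFF, where 1 array detected it, and 202.5, 199.2 and 172.9 in hSRY-ON, where 2 arrays did. The groups overlapped, and the log2 fold change was 0.19 (SE 0.24) with a limma adjusted p of 0.696. It was 0.46 without hSRY-ON array 3, 0.08 without hSRY-OFF array 3 and 0.05 without background correction, none of them called. Probes ILMN_3071262 and ILMN_3150064 were each detected on 1 hSRY-ON array and were not tested.

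**Figure D3:**
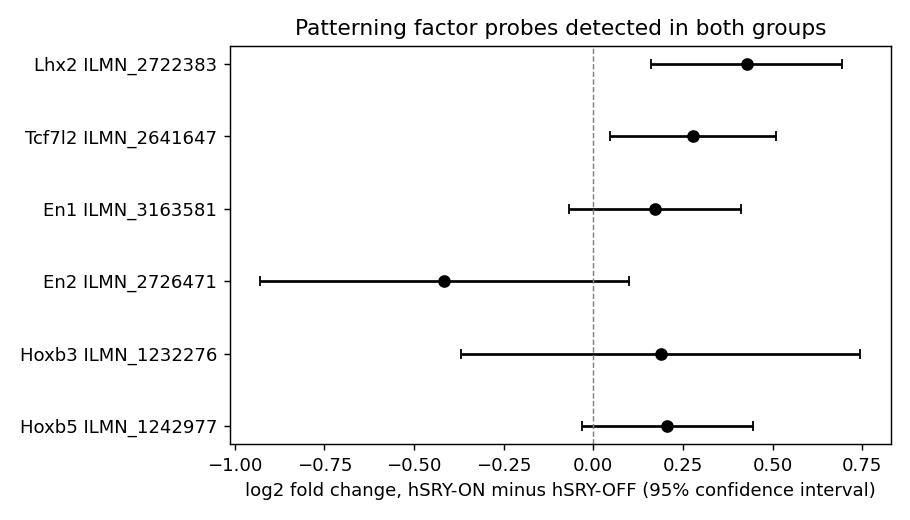
Log2 fold change, hSRY-ON minus hSRY-OFF, of the 6 tested member probes detected in both groups, with 95% intervals from limma. The intervals of Lhx2 and of the main Tcf7l2 probe lie above 0, those of En1, En2, Hoxb3 and Hoxb5 cross 0, and none of the 6 was called after adjustment over all tested probes.

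Regional share is a balance between territories, so forebrain and more caudal factors were also set against each other within each brain. The difference of the log2 levels of each pair was taken on every array and expressed relative to the hSRY-OFF mean of that pair. For Lhx2 minus En2, hSRY-OFF brains were at -0.09, -0.51 and 0.60 and hSRY-ON brains at 0.98, 0.89 and 0.67, so the groups did not overlap. For Tcf7l2 minus En2, hSRY-OFF reached 0.54 on array 3 and hSRY-ON went down to 0.50, so they did. Against En1 and Hoxb5, both forebrain genes overlapped between the groups. Lhx2 minus En1 ranged from -0.28 to 0.26 in hSRY-OFF and 0.04 to 0.51 in hSRY-ON, and Lhx2 minus Hoxb5 from -0.24 to 0.19 and -0.10 to 0.45. Tcf7l2 minus Hoxb5 ranged from -0.13 to 0.14 in hSRY-OFF and -0.27 to 0.25 in hSRY-ON. Of the 6 pairs compared, the single one without overlap contains En2. It joins the highest and the lowest log2 fold change of the 6 probes detected in both groups. The pairs share genes and are not independent, so 1 pair without overlap carries little weight. Hoxb3 was not paired.

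A wider set of 109 patterning genes, arranged by territory, placed the members in context. Of these, 105 were in the table with 136 probes, 64 of which were detected on no array, and 58 probes of 53 genes were tested. In hSRY-ON, 39 of the 58 had a higher mean and 19 a lower one, with a median log2 fold change of 0.18. Of the 58, 1 was called, a share near the 2.17% called among all tested probes. The groups did not overlap for 15 higher and 3 lower probes, beside the 27.7% of all tested probes given above. The median was 0.08 without background correction and 0.03 over all 136 probes without a filter, of which 79 were higher. In bins of signal, the median over all tested probes stayed between 0.001 and 0.009, and with detection required on all arrays 29 of 40 patterning probes were higher with a median of 0.17. The median of the patterning probes was 0.24 under a log2 signal of 6, where 6 were higher and 5 lower, and 0.24 between 6 and 7, with 11 higher and 8 lower. It was 0.17 between 7 and 8, with 8 higher and 2 lower, 0.17 between 8 and 10, with 9 higher and 2 lower, and 0.05 at 10 or more, with 5 higher and 2 lower.

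The called probe was that of Gata2, a zinc-finger factor that commits midbrain neurons to a GABAergic fate and is also essential in blood progenitors. Its probe (ILMN_2612283) was at 351.7, 300.7 and 313.9 in hSRY-OFF and 445.9, 381.2 and 406.2 in hSRY-ON, with no overlap. Gata2 rose by 0.69 on the log2 scale (SE 0.096, 95% interval 0.46 to 0.92), from log2 levels of 7.43, 7.25 and 7.43 to 8.17, 7.94 and 8.07, with a limma adjusted p of 0.0294. Without background correction the log2 fold change was 0.40 and Gata2 was still called (adjusted p 0.00215). The call was lost without hSRY-OFF array 1 (adjusted p 0.0921), array 2 (0.111) or array 3 (0.09), without hSRY-ON array 1 (0.0848) or array 2 (0.0614), and with the replicate number as a block (0.0986). Gata3, its partner in the same midbrain neurons, had a log2 fold change of 0.44 and an adjusted p of 0.31. Over the 8 tested probes of the midbrain and isthmus list, 6 were higher, 2 were lower and the median was 0.23.

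The forebrain lists held no called probe, which at 2.17% called among all tested probes says little for lists of 9 and 7 probes. In the pallium list, which covers the cortex, 6 of 9 tested probes were higher and 3 lower with a median log2 fold change of 0.05. Its lowest p was that of Sp8, a zinc-finger factor of the rostral cortex and olfactory interneurons, which stood 0.47 higher on the log2 scale (SE 0.090) at a limma adjusted p of 0.0501. Sp8 was called with the stricter detection filter, where 705 of all 11619 tested probes were called, and with array weights, where 480 of 14215 were. Without background correction its log2 fold change was 0.17 (adjusted p 0.111). In the subpallium list, which covers the basal ganglia and interneurons, 6 of 7 were higher with a median of 0.34. There Isl1, a LIM-homeobox factor of striatal neurons, was at 985.5, 801.9 and 865.9 in hSRY-OFF and 1358, 975.3 and 971.1 in hSRY-ON, with a log2 fold change of 0.43 (SE 0.14) and an adjusted p of 0.139. Those deposited intensities overlapped, with hSRY-ON array 1 above the other 5. Isl1 was called without background correction (adjusted p 0.0229) and with the robust prior (adjusted p 0.0127), and its log2 fold change was 0.29 without hSRY-ON array 1. Those 2 settings called 1317 and 1447 of all 14215 tested probes.

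Diencephalic genes, which share the thalamic territory of Tcf7l2, had means on both sides. Of 12 tested probes 8 were higher and 4 lower, with a median of 0.14, and at an unadjusted p under 0.05 there were 4 higher and 3 lower, where 20.9% of all tested probes had such a p. Lhx9, a LIM-homeobox factor of the thalamus, stood higher by 0.49 (SE 0.10, limma adjusted p 0.0611) and 0.48 (adjusted p 0.106) at its 2 tested probes on the log2 scale. The first was called in 4 of 15 other settings, with adjusted p of 0.0137 without background correction, 0.0272 with normexp at offset 50, 0.0304 with the stricter detection filter and 0.0165 with the robust prior. In that order, these settings called 1317, 860, 705 and 1447 of all tested probes, against 308 in the main fit. Gbx2, a homeobox factor that thalamic neurons require, had a log2 fold change of 0.53 with an adjusted p of 0.095. Nkx2-2 differed in the opposite sense, with -0.35 (adjusted p 0.12) and -0.40 (adjusted p 0.171) at its 2 probes. Without background correction and with the robust prior, Gbx2 was called higher and 1 Nkx2-2 probe lower, and Gbx2 was also called with normexp at offset 50. Nkx2-2 is also a factor of the oligodendrocyte lineage, whose markers were lower on the same arrays, and their part in its value was not tested.

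The caudal lists, with 8, 3 and 11 tested probes, gave no call, which says as little beside that 2.17%. Of the 8 rhombic lip and cerebellum probes, 3 were higher and 5 lower, with a median log2 fold change of -0.02, and in none did the groups stand apart. Zic1 had the lowest p of that list, with a log2 fold change of 0.16 (SE 0.18) and a limma adjusted p of 0.662, and its value was -0.04 without hSRY-OFF array 3. In the hindbrain list, Phox2a, which specifies noradrenergic and cranial motor neurons, stood 0.26 higher (log2, SE 0.12) with an adjusted p of 0.294, and its value was 0.13 without hSRY-OFF array 2 and 0.08 without background correction. Of the other hindbrain probes, Egr2 had a log2 fold change of 0.34 (adjusted p 0.504) and Tlx3 one of -0.41 (adjusted p 0.344). Of the other Hox genes, all 37 were in the table with 49 probes, 30 of them detected on no array, and 8 of the 11 tested probes were higher with a median of 0.26. Hoxa2, the Hox gene that reaches furthest forward in the hindbrain, had a log2 fold change of 0.47 (SE 0.10) and an adjusted p of 0.0638 at one probe and 0.41 and 0.337 at the other. The first was called with the stricter detection filter (adjusted p 0.032), where 705 of all 11619 tested probes were called. Its log2 fold change was 0.17 without background correction. Hoxb6 and Hoxb7, which follow Hoxb5 in the cluster, stood 0.51 and 0.67 higher on the log2 scale, with adjusted p of 0.339 and 0.435. Hoxb2, on the other side of Hoxb3, had a log2 fold change of -0.08 (adjusted p 0.775).

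**Figure D4:**
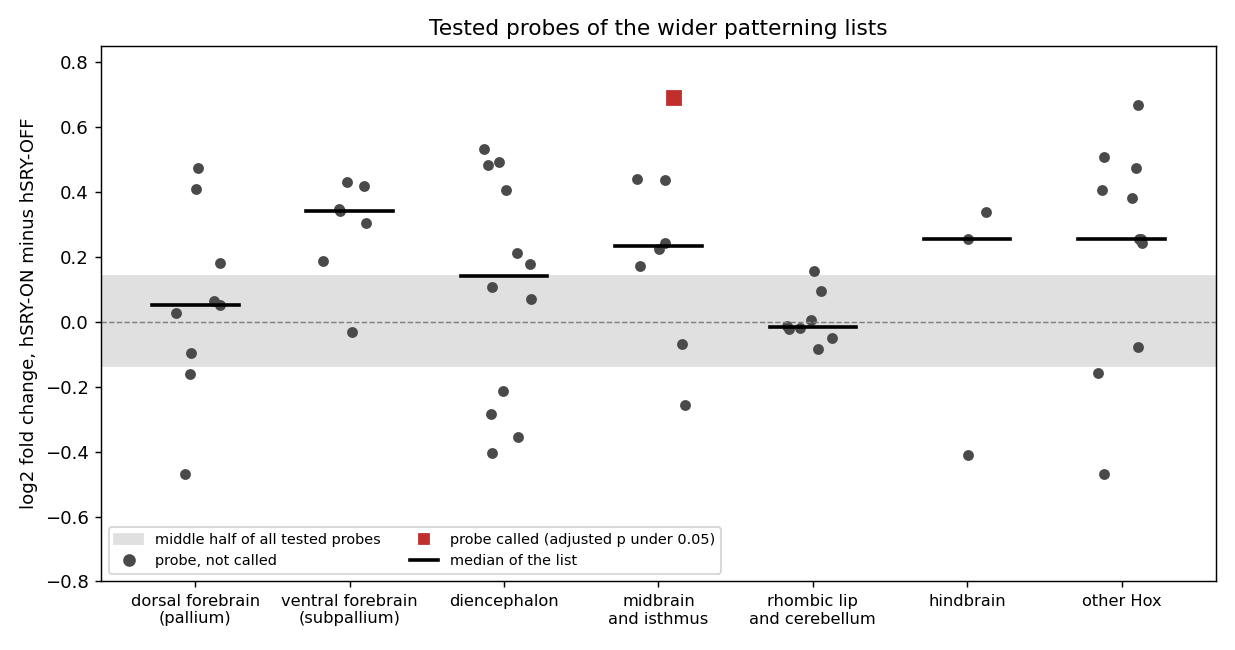
Log2 fold change, hSRY-ON minus hSRY-OFF, of each tested probe of the wider patterning lists by territory, with the median of each list as a bar and the called probe, Gata2, marked. Medians ran from -0.02 for the rhombic lip and cerebellum to 0.34 for the subpallium, and every list held both higher and lower values.

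Probes with the most similar pattern over the 6 arrays were sought among all tested probes for the member probe with the highest mean signal in each territory. For Tcf7l2 these were Acpl2, 9430023L20Rik and Zfp12, with Pearson correlations of 0.998, 0.996 and 0.996. For En2 they were Mpdz, Cox7b and Tfrc, at 0.989, 0.984 and 0.977, and for Hoxb5 they were Klhl15, Nsun5 and Srp54, at 0.993, 0.993 and 0.984. With 6 arrays that share their normalization, correlations this high are what was picked from 14215 probes and describe these arrays only.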

How the data were processed

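Whole brains of 3 hSRY-OFF and 3 hSRY-ON males were measured on 1 array each. The authors deposited a mean bead signal intensity per probe and array on a linear scale, with no normalization, and a detection p-value beside it. The study's methods name the package TCC without settings, which was not used here, and the submitters' processing notes name limma, version not given. Groups and replicate numbers came from the labels. Chip and batch were not given in the sources used here. The p-values measure the spread between these mice.

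In R 4.3.3 with limma 3.58.1, intensities were corrected with normexp (offset 16), with negative controls inferred from the detection p-values, and quantile normalized. This correction subtracts most of the background and widens the spread of dim probes. Detection (p-value under 0.05) was required on 3 or more of the 6 arrays. The remaining 14215 probes were fitted with lmFit and eBayes, group only, two-sided. P-values were adjusted by Benjamini-Hochberg over all of them, and calls were made under 0.05. Precision is limited by the 3 arrays a group, for which an exact permutation test cannot give a p below 0.1. Gene positions are those of RefSeq on GRCm38.p6, and pairs of members were compared between groups only as shifts from their own hSRY-OFF mean. Signals of different probes do not rank transcript amounts, and the highest mean signal served only to choose 1 member probe per territory. Named in the text were every member probe, the called probes of each wider list or else that with the lowest p, the summed markers, and the 3 probes most correlated with each member probe so chosen. Slc17a7, Slc1a3, Gja1, Aldoc, Myh8, Gh, Egr2, Tlx3, Gata3, Gbx2, Nkx2-2, Hoxb2, Hoxb6, Hoxb7, the second probes of Lhx9 and Hoxa2, and the pairs of members were chosen after their values were seen. The members and lists were chosen with earlier results of these data known. Alternatives were other background corrections, normalizations, filters, priors and weights, a replicate block, and each array left out. The fit was tested on simulated data. Plots used matplotlib 3.10.9 (Python 3.11.15).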

Additional observations from a re-analysis of the deposited data

How the results depend on the processing

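The 6 member probes detected in both groups kept their direction under every alternative in which they were fitted, 15 each, or 11 for Hoxb3. The count of called members was 0, except 1 without background correction and 1 with a robust prior that follows signal, both Tcf7l2. The log2 fold change of En2 ran from -0.69 to -0.25 when single arrays were left out, and that of Lhx2 from 0.35 to 0.50. Without background correction the dim probes had smaller log2 fold changes, 0.18 for Lhx2 and 0.17 for Sp8. Called probes in the wider lists numbered 1, against 6 without background correction, 4 with normexp at offset 50, 4 with detection under 0.01 on all arrays, 6 with the robust prior, 2 with array weights, and 0 to 1 when an array was left out. Over all probes, 308 were called, against 1317 without background correction, 860 with normexp at offset 50, 123 without a filter, 705 with the strict filter, 1447 with the robust prior, 480 with array weights, and 0 to 417 when an array was left out. With the replicate number as a block, 0 members, 0 probes of the wider lists and 0 probes in all were called by limma, with 2906 of all probes at an unadjusted p under 0.05. Same-numbered arrays correlated at 0.04, 0.029 and 0.025, and arrays of different numbers between -0.023 and -0.0054, so each array correlated best with its own number. Correlations this small do not decide whether the numbers mark pairs. Zic1 turned to -0.042 without hSRY-OFF array 3 and ran up to 0.288 without other arrays. The causes were not tested. Emx2, Pax6 and most Hoxb3 probes were too dim to compare.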
